A study of Mus musculus with 9 samples.

Results

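The circadian clock genes described here are the 10 genes Arntl, Clock, Per1, Per2, Per3, Cry1, Cry2, Nr1d1, Nr1d2 and Dbp. They were chosen by name as rows of the deposited expression table, and all 10 were among its 15228 genes and passed the filter on low levels. RNA was sequenced from cells sorted as retinal ganglion cells (RGCs) from wild-type C57BL/6J mice, which the study's methods describe as young adults of both sexes. The Ctrl group came from normal intact retinas. The ONC group came from retinas whose optic nerve was crushed and which received phosphate-buffered saline (PBS) in the eye. The TPEN group came from crushed retinas that received TPEN, a membrane-permeable chelator of mobile zinc, in place of PBS. Both injured groups were collected on day 3, each group had 3 libraries, and the Ctrl eyes are not described as injected or sham-operated. Mice were kept in light and dark phases of equal length, but the time of day of surgery, injection or tissue collection is not given in the sources used here. If the groups were collected at different times of day, that difference and the treatment cannot be told apart by this design. A single collection per group also means that the phase of the clock was not measured, and the data give levels only. It is not stated whether each library was made from different animals, so p-values measure the spread between these libraries, which may be technical.

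Libraries held 20077226 to 23109754 reads in Ctrl, 22967138 to 22986065 in ONC and 19946993 to 22217283 in TPEN. The markers of the sorted cells were mixed. Of the 8 RGC markers in the table, Nefl and Nefm, neurofilament genes of large neurons, ranked 153 and 847 of the 15228 genes by mean level, Sncg 2289, Thy1 6283 and Isl1 10436, while Rbpms, Slc17a6 and Pou4f1 ranked 13805, 14020 and 14252, and Gnat1, the gene of rod transducin, ranked 2. The levels below are those of a population rich in rod transcripts, and the share of RGCs in it was not estimated from these data. The study's methods describe sorting by surface markers and staining of the sorted cells for the RGC marker RBPMS. The result of that check is not given in the sources used here. In such bulk RNA, fewer cells of a type and less RNA per cell cannot be told apart.

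The mammalian clock is a transcriptional loop that runs in most cells, including those of the retina. The proteins of Arntl (BMAL1) and Clock bind together at E-box sequences and switch on the Per, Cry, Nr1d and Dbp genes. The PER and CRY proteins then repress BMAL1 and CLOCK. NR1D1 and NR1D2 (REV-ERB alpha and beta) repress Arntl at sequences called ROREs, where ROR proteins activate it, and DBP activates genes with a D-box. In mouse tissues with a strong rhythm, Nr1d1 and Dbp reach their peak during the light phase, the Per genes and then Cry1 follow, and Arntl peaks roughly opposite to Dbp and Nr1d1.

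The elements named above could be read in promoter windows from RefSeq (GRCm38.p6, the build of the deposited table), which run from 250 bases before to 50 bases after a gene's start. Windows existed for 9 of the 10 clock genes (13 windows in all, with some genes holding more than 1 start), and Per2 had none. The motifs searched, on both strands, were the E-box CACGTG, the related E-prime box CACGTT, the D-box TTATGTAA and the RORE TAGGTCA. Of all 32851 windows, 7.15% held the E-box, 4.68% the E-prime box, 0.938% the D-box and 2.61% the RORE. At least 1 match was held by 6 clock genes, and the share of all windows with any of these motifs was not counted. Their stretches are printed on the gene's strand with the element in capitals, because elements of these kinds belong to the loop described above. These are matches of sequence only, and binding was not measured. An E-prime box on the other strand reads AACGTG, and none of the printed elements overlap each other. The Arntl stretch (chr7:113207531-113207557, plus strand) lies in an exon of the deposited gene model and holds a RORE. The Per1 stretch (chr11:69098771-69098800, plus strand) lies in an intron of the deposited gene model and before a RefSeq start, and holds an E-box. The stretches of Per3 (chr4:151044804-151044882, 2 D-boxes), Cry1 (chr10:85185097-85185145, an E-prime box and an E-box), Cry2 (chr2:92434218-92434247, an E-prime box) and Nr1d1 (chr11:98775388-98775417, an E-prime box) are on the minus strand and lie before the gene. The last one is that of Ciart (chr3:95882255-95882356, minus strand), which encodes the repressor CHRONO and holds 3 E-boxes.
Arntl: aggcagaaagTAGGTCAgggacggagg
Per1: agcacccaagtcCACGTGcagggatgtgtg
Per3: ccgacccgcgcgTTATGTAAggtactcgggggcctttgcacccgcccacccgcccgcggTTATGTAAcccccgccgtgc
Cry1: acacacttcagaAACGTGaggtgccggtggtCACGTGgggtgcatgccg
Cry2: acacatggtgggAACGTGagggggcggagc
Nr1d1: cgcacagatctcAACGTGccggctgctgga
Ciart: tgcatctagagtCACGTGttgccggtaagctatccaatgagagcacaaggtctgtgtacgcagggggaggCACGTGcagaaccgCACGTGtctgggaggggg

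The clock genes were expressed at moderate levels that varied little between libraries. Levels are given as RPKM, read numbers scaled to exon length and library size. The mean over the 9 libraries was 18.9 RPKM for Nr1d2, 16.2 for Nr1d1, 13.7 for Cry1, 10.9 for Arntl, 9.54 for Per1, 7.12 for Per3, 6.55 for Dbp, 5.89 for Cry2, 5.03 for Clock and 2.48 for Per2. The ranges over the libraries of neighbours in this order overlapped, except between Cry1 and Arntl, between Per1 and Per3, and between Clock and Per2. Nr1d2 ranked 2483 and Per2 9426 of 15228 genes, and a clock gene had between 270 (Per2) and 2372 (Nr1d2) reads in a library. The ratio of the highest to the lowest of the 9 libraries ranged from 1.07 for Per3 to 1.32 for Nr1d1, with a median of 1.24, against a median of 1.36 for the 13566 genes tested. None of the 10 clock genes reached a ratio of 2, which 14.5% of the genes tested did. Within groups, the pooled coefficient of variation ran from 2.16% (Per3) to 6.70% (Cry1). For Per2, Per3 and Dbp it was below the 5.65%, 2.59% and 4.86% that counting of reads alone gives. Whether depth limited the precision of these genes was not tested. For Dbp the coefficient in single groups ran from 1.18% in TPEN to 7.05% in Ctrl.

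**Figure D1:**
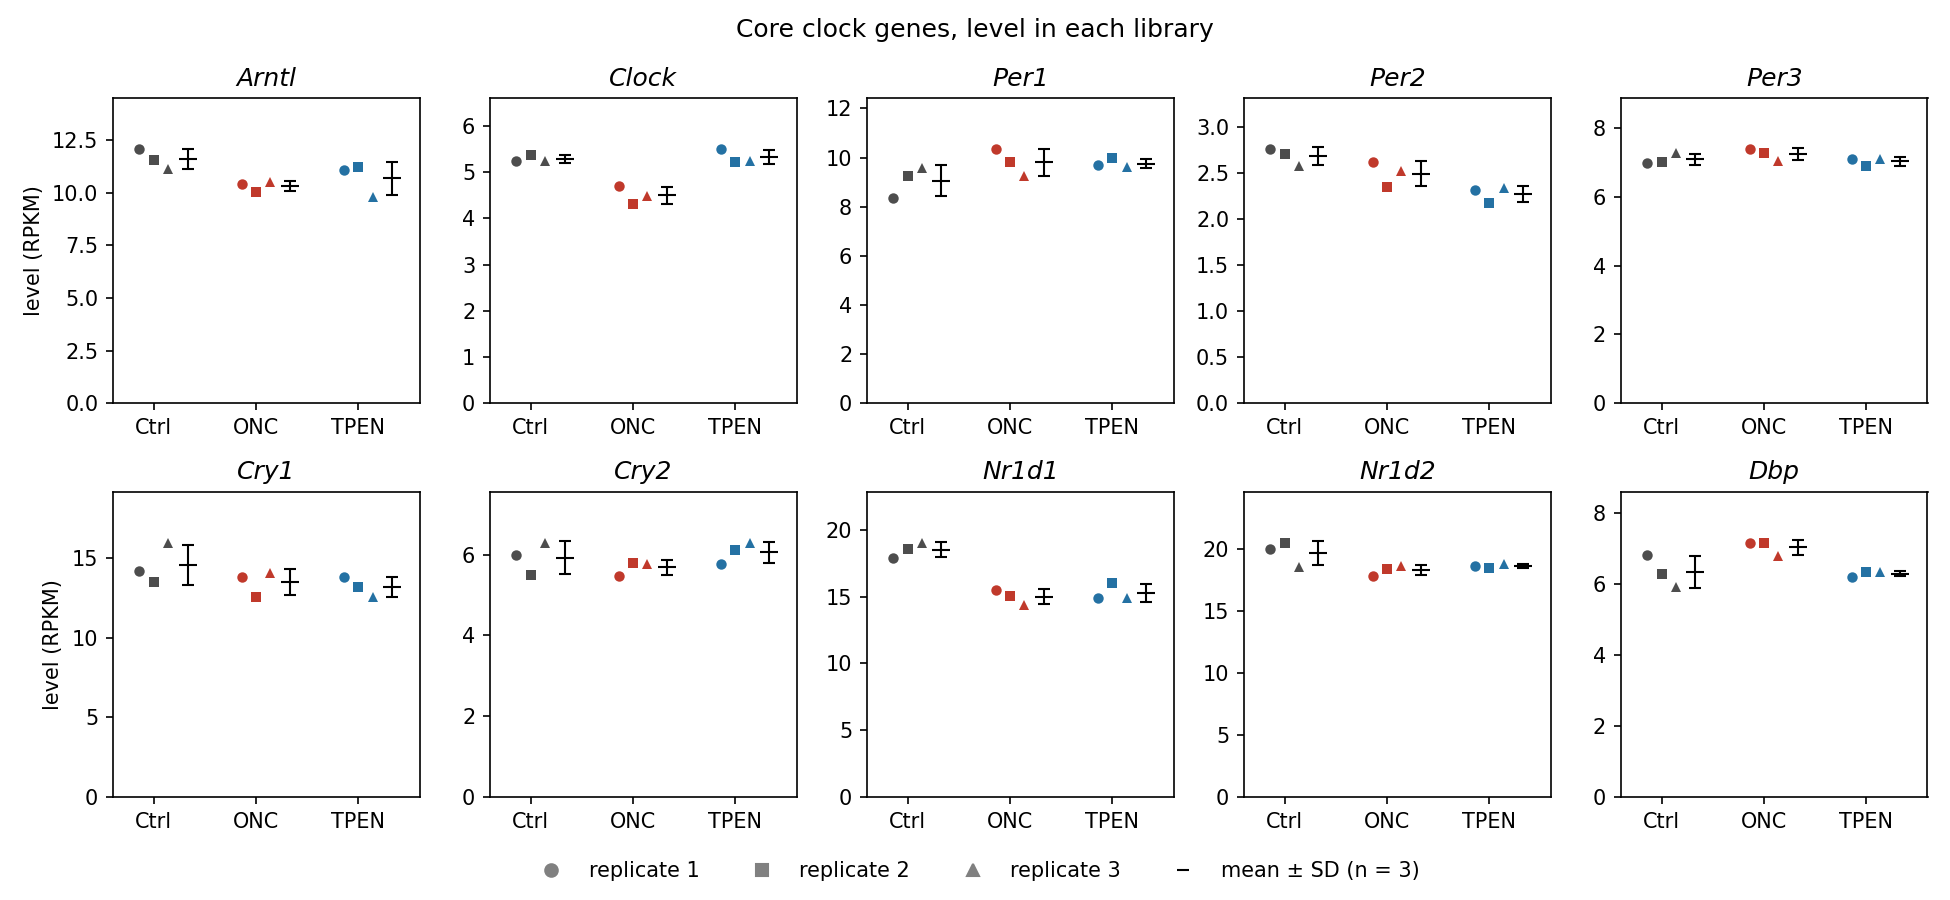
Level of each clock gene in each library (RPKM, each vertical axis starting at 0), with Ctrl in grey, ONC in red and TPEN in blue, a symbol for each replicate number and bars for the mean ± SD (n = 3 libraries). Nr1d1 lies between 17.9 and 19.0 RPKM in Ctrl and between 14.4 and 16.0 RPKM in the injured groups, Clock is lowest in ONC, and the points of Per3 stay between 6.88 and 7.39 RPKM.

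Group differences were tested with limma on log2(RPKM + 0.1), a scale on which the fold change of low genes is understated, and p-values were adjusted over all 13566 genes that averaged 0.5 RPKM or more. In ONC/Ctrl, 2 of the 10 clock genes, Nr1d1 and Clock, passed an adjusted p under 0.05, both lower, beside 18.7% of all genes tested in either direction and, by direction, 11.7% higher and 6.97% lower. In TPEN/ONC, 1 clock gene (Clock, higher) passed, beside 7.39% of all genes (3.24% higher, 4.14% lower). In TPEN/Ctrl, 1 clock gene (Nr1d1, lower) passed, beside 13.4% of all genes (8.36% higher, 5.01% lower). At an unadjusted p under 0.05 the counts were 5, 2 and 2 of 10 in ONC/Ctrl, TPEN/ONC and TPEN/Ctrl, beside 31.6%, 22% and 27.2% of all genes. With voom on the recovered reads they were 4, 1 and 1, beside 24.1%, 12.1% and 17.6% of all genes. No clock gene had a fold change of 1.5 in any comparison, a size that, with an adjusted p under 0.05, 5.34%, 2.03% and 3.91% of all genes had. The median log2 fold change of the 10 genes was -0.10 in ONC/Ctrl, 0.0093 in TPEN/ONC and -0.046 in TPEN/Ctrl, and their median absolute log2 fold change was 0.11, 0.044 and 0.094, against 0.132, 0.103 and 0.116 for all genes. The 95% intervals of all 30 differences lay between -0.41 and 0.37 on the log2 scale, that is between 1.33-fold lower and 1.29-fold higher. The intervals were not adjusted for the number of genes. Clock genes whose libraries did not overlap between groups numbered 3 in each comparison, beside 36.5%, 28% and 31.3% of all genes.

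**Figure D2:**
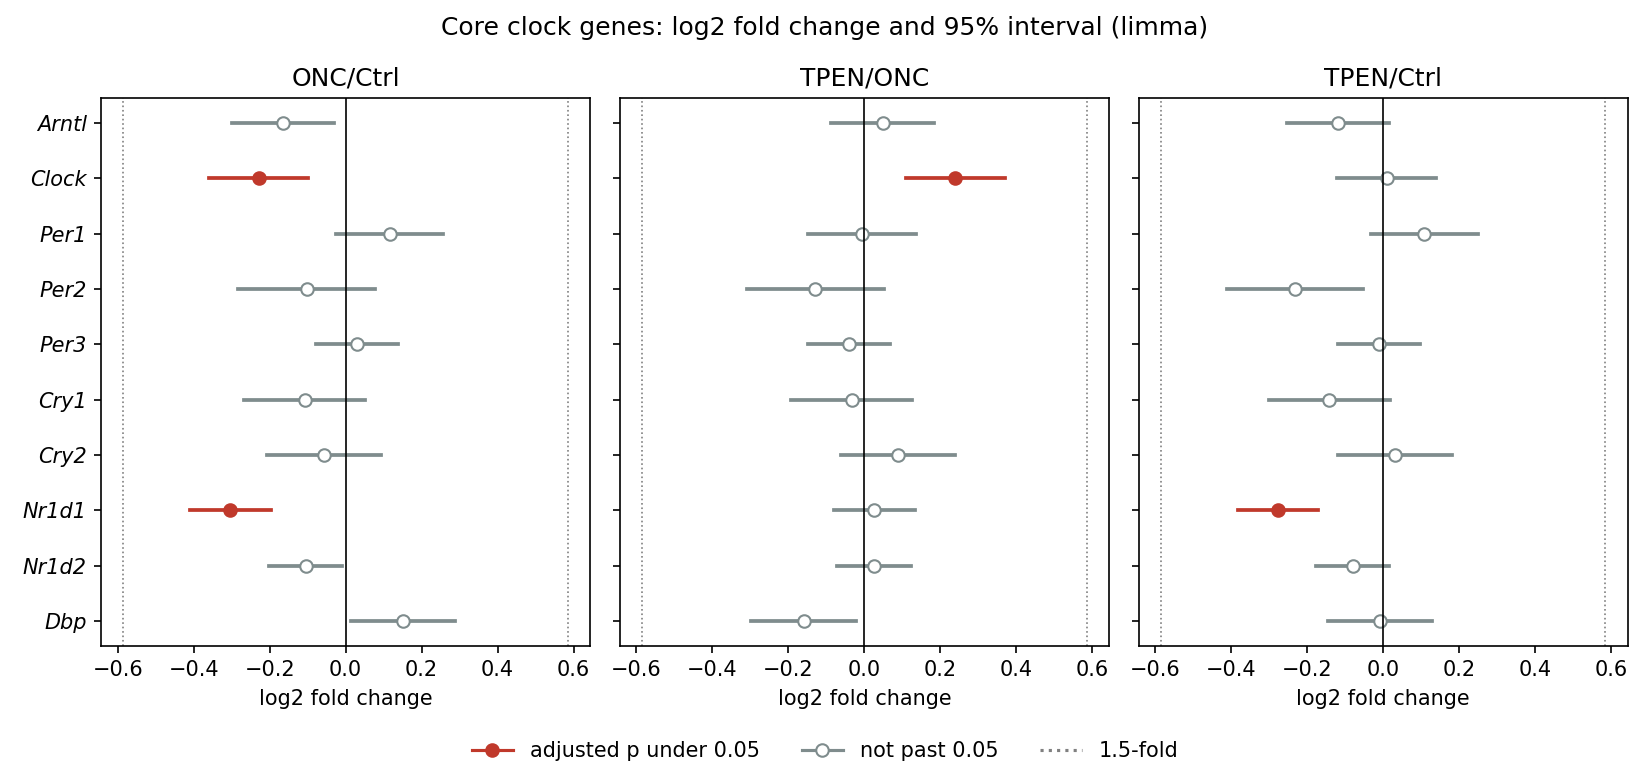
Log2 fold change of each clock gene in the 3 comparisons with its 95% limma interval, filled red where the adjusted p was under 0.05 and open grey where it was not, with dotted lines at a fold change of 1.5. Every interval lies inside the dotted lines, and the filled points are Clock and Nr1d1 in ONC/Ctrl, Clock in TPEN/ONC and Nr1d1 in TPEN/Ctrl.

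Among the activators, Clock was lower in ONC than in both other groups. Clock, on chromosome 5 (76209868 to 76304792, GRCm38), encodes the partner of BMAL1. Its level was 5.25, 5.37 and 5.23 RPKM in Ctrl replicates 1 to 3, 4.69, 4.32 and 4.48 RPKM in ONC, and 5.50, 5.23 and 5.24 RPKM in TPEN. Every ONC library was below every Ctrl and every TPEN library, and Ctrl and TPEN overlapped. On the log2 scale, Clock differed by -0.23 in ONC/Ctrl (standard error, SE, 0.058, limma adjusted p = 0.0217) and by 0.24 in TPEN/ONC (SE 0.058, limma adjusted p = 0.0374), comparisons that share the ONC libraries. In TPEN/Ctrl it was 0.010, with a 95% interval from -0.12 to 0.14. The call in ONC/Ctrl was lost without Ctrl replicate 1 (adjusted p = 0.0571), Ctrl replicate 2 (0.0702), ONC replicate 2 (0.0785) or ONC replicate 3 (0.0596). The call in TPEN/ONC was lost in 8 of the 9 fits that left out a library, with adjusted p between 0.0563 and 0.124, and held only without Ctrl replicate 3 (0.0451).

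Arntl, the gene of BMAL1, on chromosome 7 (113207465 to 113314126), is the clock gene that the RORE printed above belongs to. It had 12.1, 11.5 and 11.1 RPKM in Ctrl, 10.4, 10.04 and 10.5 RPKM in ONC, and 11.1, 11.2 and 9.80 RPKM in TPEN. The ONC libraries were below all Ctrl libraries, and the TPEN libraries spanned both groups because replicate 3 was the lowest of all 9. Arntl differed on the log2 scale by -0.17 in ONC/Ctrl (SE 0.060, limma adjusted p = 0.0874), by 0.048 in TPEN/ONC (adjusted p = 0.701) and by -0.12 in TPEN/Ctrl (adjusted p = 0.246). Without TPEN replicate 3, the adjusted p of Arntl in ONC/Ctrl was 0.0444, and over the alternatives it ranged from 0.00557 to 0.237. Gm45355 on the opposite strand shares 33 exon bases (0.439%) with Arntl.

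The Per genes encode the repressors that are induced first in the loop and, in the case of Per1 and Per2, respond to light. Per1, on chromosome 11 (69095217 to 69109960), had 8.34, 9.24 and 9.57 RPKM in Ctrl, 10.4, 9.84 and 9.24 RPKM in ONC and 9.69, 9.97 and 9.62 RPKM in TPEN. All TPEN libraries exceeded all Ctrl libraries by a small margin, and ONC overlapped both. Its log2 fold change was 0.12 in ONC/Ctrl (limma adjusted p = 0.248), -0.0064 in TPEN/ONC (0.971) and 0.11 in TPEN/Ctrl (0.311). Per2, on chromosome 1 (91415982 to 91459324), had 2.76, 2.70 and 2.58 RPKM in Ctrl, 2.62, 2.34 and 2.51 RPKM in ONC and 2.31, 2.17 and 2.33 RPKM in TPEN. Every TPEN library was below every other library, while Ctrl and ONC overlapped. The log2 fold change of Per2 was -0.10 in ONC/Ctrl (limma adjusted p = 0.427), -0.13 in TPEN/ONC (0.398) and -0.23 in TPEN/Ctrl (SE 0.080, adjusted p = 0.0920). Quantile normalization between libraries took the last value past the threshold (adjusted p = 0.0446). Per3, on chromosome 4 (151003652 to 151044665), which carries the pair of D-boxes printed above, stayed between 6.99 and 7.26 RPKM in Ctrl, 7.04 and 7.39 RPKM in ONC, and 6.88 and 7.11 RPKM in TPEN. All groups of Per3 overlapped, and its 95% intervals over the 3 comparisons lay between -0.15 and 0.14 on the log2 scale.

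The cryptochromes Cry1 and Cry2 encode the stronger repressors of the loop. Cry1, on chromosome 10 (85131700 to 85185064), had 14.2, 13.5 and 16.0 RPKM in Ctrl, 13.8, 12.6 and 14.1 RPKM in ONC and 13.8, 13.2 and 12.6 RPKM in TPEN. Ctrl replicate 3 was the highest library, and all groups overlapped. For Cry1, the log2 fold change was -0.11 in ONC/Ctrl (limma adjusted p = 0.339), -0.033 in TPEN/ONC (0.837) and -0.14 in TPEN/Ctrl (0.238). Cry2, on chromosome 2 (92403646 to 92434043), had means of 5.92 ± 0.411 RPKM in Ctrl, 5.68 ± 0.178 in ONC and 6.06 ± 0.271 in TPEN (SD, n = 3), with overlap between all groups. Its log2 fold changes were -0.057, 0.089 and 0.032, with limma adjusted p of 0.618, 0.492 and 0.813. D930015M05Rik on the opposite strand shares 295 exon bases (4.67%) with Cry2, and use of strand in counting is not stated.

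Nr1d1 showed the largest difference among the 10 genes in ONC/Ctrl and in TPEN/Ctrl. It encodes REV-ERB alpha, the heme-binding repressor of Arntl, and lies on chromosome 11 (98767932 to 98775333). Its level was 17.9, 18.6 and 19.0 RPKM in Ctrl, 15.5, 15.1 and 14.4 RPKM in ONC, and 14.9, 16.0 and 14.9 RPKM in TPEN. Every library of the injured groups was below every Ctrl library, and ONC and TPEN overlapped. Its mean fell by 19.1% in ONC/Ctrl (log2 fold change -0.30, SE 0.047, limma adjusted p = 0.00160). It fell by 17.5% in TPEN/Ctrl (log2 fold change -0.28, SE 0.047, limma adjusted p = 0.00398), against the same Ctrl libraries. In TPEN/ONC it was 0.026, with a 95% interval from -0.080 to 0.13 (adjusted p = 0.800). Both calls held in all 16 alternatives, with adjusted p from 4.0e-05 to 0.00775 in ONC/Ctrl and from 4.6e-04 to 0.0195 in TPEN/Ctrl. Thra, the gene of thyroid hormone receptor alpha, runs on the opposite strand and shares 263 exon bases with Nr1d1, or 8.55% of the exon length of Nr1d1. Thra had a higher mean level (34.2 RPKM) and a log2 fold change of -0.15 in ONC/Ctrl (limma adjusted p = 0.0207) and -0.065 in TPEN/Ctrl (0.293). Reads in the shared part of Nr1d1 and Thra cannot be assigned without strand, and their part in the difference was not tested.

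Nr1d2, the gene of REV-ERB beta on chromosome 14 (18204054 to 18239127), shares no bases with another listed gene. It had 20.0, 20.5 and 18.6 RPKM in Ctrl, 17.9, 18.4 and 18.6 RPKM in ONC and 18.6, 18.4 and 18.8 RPKM in TPEN. Ctrl replicates 1 and 2 were the highest libraries, and replicate 3 lay among the injured groups. For Nr1d2, it was on the log2 scale -0.10 in ONC/Ctrl (SE 0.043, limma adjusted p = 0.128), 0.025 in TPEN/ONC (0.790) and -0.080 in TPEN/Ctrl (0.274). Its adjusted p in ONC/Ctrl was 0.0320 without Ctrl replicate 3, 0.0383 after quantile normalization and 0.0290 with voom on the recovered reads.

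Dbp is the output gene whose level swings most between day and night in many mouse tissues, and it encodes the D-box activator DBP. It lies on chromosome 7 (45705088 to 45710203). Its level was 6.81, 6.27 and 5.92 RPKM in Ctrl, 7.17, 7.16 and 6.79 RPKM in ONC, and 6.20, 6.33 and 6.33 RPKM in TPEN. ONC replicate 3 lay just below Ctrl replicate 1, so these groups overlapped, while every TPEN library was below every ONC library. The log2 fold change was 0.15 in ONC/Ctrl (SE 0.061, limma adjusted p = 0.123), -0.16 in TPEN/ONC (SE 0.061, adjusted p = 0.158) and -0.0087 in TPEN/Ctrl (adjusted p = 0.953). It did not pass the threshold in any of the 16 alternatives of the 3 comparisons. Its 95% intervals allow a log2 fold change of up to 0.29 in ONC/Ctrl and down to -0.30 in TPEN/ONC. Sphk2, which encodes a sphingosine kinase, shares 539 exon bases with Dbp on the opposite strand (18.0% of the exons of Dbp). Sphk2 had a mean of 3.14 RPKM and log2 fold changes of 0.13 and -0.14 in ONC/Ctrl and TPEN/ONC (limma adjusted p = 0.424 and 0.480).

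The levels of genes that peak at different times of day were also compared within each library as differences of log2(RPKM + 0.1). These are a description with no test, and they do not measure the phase of the clock. Arntl minus Dbp was 0.82, 0.87 and 0.90 in Ctrl, 0.53, 0.48 and 0.62 in ONC, and 0.83, 0.81 and 0.62 in TPEN. All ONC libraries were below all Ctrl libraries, by 0.32 between the means, and TPEN replicate 3 lay among the ONC libraries. For Arntl minus Nr1d1, a pair that also has opposite timing, the values overlapped. They were -0.67 ± 0.10 in Ctrl, -0.53 ± 0.074 in ONC and -0.51 ± 0.085 in TPEN (SD, n = 3), with a difference of 0.14 between the means of ONC and Ctrl. Nr1d1 and Dbp had fitted changes of opposite sign in ONC/Ctrl, -0.30 and 0.15, of which that of Nr1d1 passed the test. Cry1 minus Per2 was 2.40 ± 0.17 in Ctrl, 2.39 ± 0.044 in ONC and 2.49 ± 0.091 in TPEN, and its means differed by -0.0050 in ONC/Ctrl and 0.095 in TPEN/ONC, both within the SD of Ctrl.

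**Figure D3:**
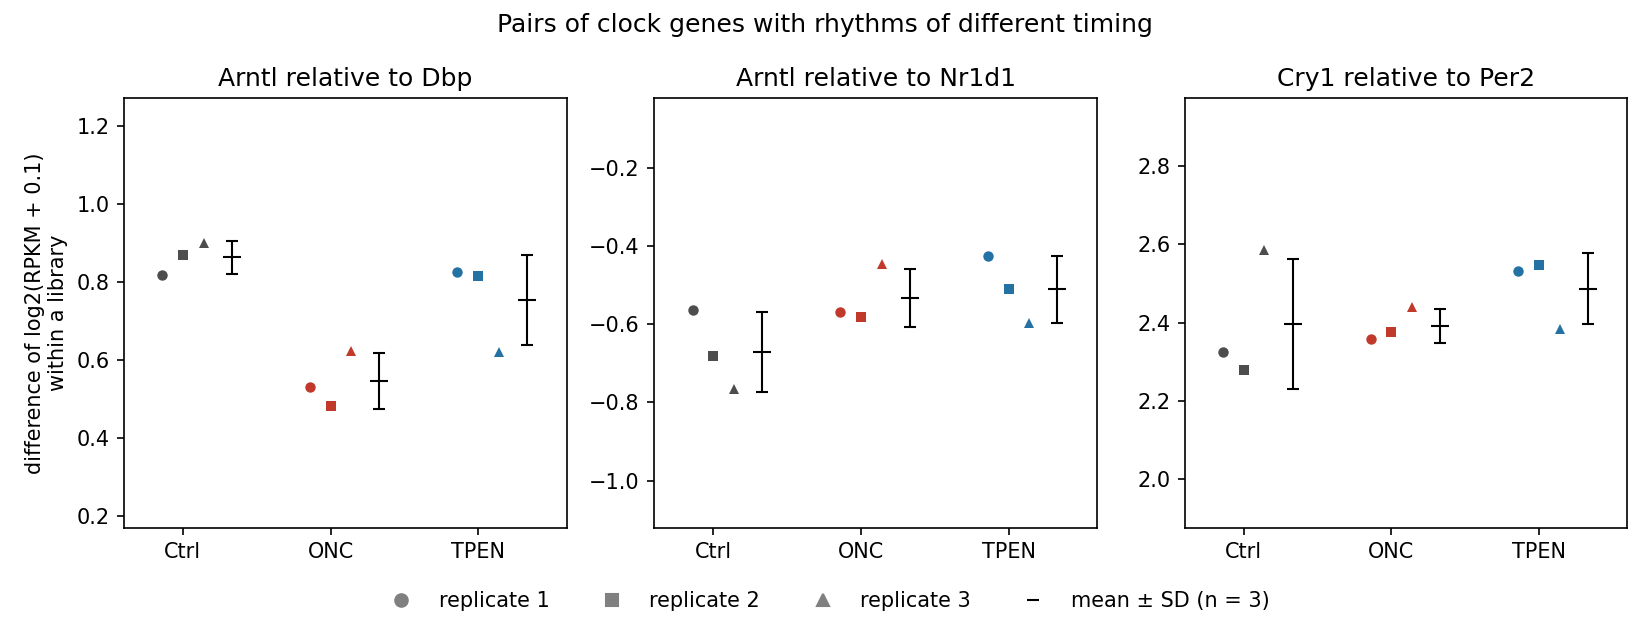
Difference of log2(RPKM + 0.1) between the genes of each pair in each library, with bars for the mean ± SD (n = 3), on vertical axes of equal span. For Arntl relative to Dbp the ONC libraries lie between 0.48 and 0.62, below the Ctrl libraries at 0.82 to 0.90, whereas for Arntl relative to Nr1d1 the mean is higher in ONC (-0.53) than in Ctrl (-0.67).

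Of the other genes of the clock loop, Ciart, Rora, Rorb and Timeless passed the test in at least 1 comparison. A list of 13 such genes held 12 that the table lists (Npas2 was not analysed here) and 11 that passed the filter on low levels. Of these 11, 4 were called in ONC/Ctrl (1 higher, 3 lower), 2 in TPEN/ONC (both higher) and 3 in TPEN/Ctrl (1 higher, 2 lower), beside 18.7%, 7.39% and 13.4% of all genes tested. Their median absolute log2 fold change was 0.18, 0.23 and 0.24, above the medians of all genes given before. The other 7 passed in none of the comparisons by limma on all 9 libraries. Under the alternatives, Arntl2 and Tef passed in ONC/Ctrl with voom, Arntl2 also after quantile normalization, and Nfil3 in TPEN/Ctrl without Ctrl replicate 1. Tef, a PAR bZIP factor that binds the same D-boxes as DBP, had a log2 fold change of 0.18 in ONC/Ctrl (limma adjusted p = 0.0905, and 0.0418 with voom) and -0.16 in TPEN/ONC (0.174).

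Ciart, the gene of CHRONO, showed the largest decrease of these genes. It had 3.81, 4.25 and 4.58 RPKM in Ctrl, 2.91, 3.14 and 2.25 RPKM in ONC, and 2.12, 2.03 and 1.91 RPKM in TPEN. The groups did not overlap in any comparison, with Ctrl highest and TPEN lowest. The log2 fold change of Ciart was -0.60 in ONC/Ctrl (SE 0.13, limma adjusted p = 0.00829), -0.42 in TPEN/ONC (adjusted p = 0.0767) and -1.02 in TPEN/Ctrl (adjusted p = 5.4e-04). The calls of Ciart in ONC/Ctrl and TPEN/Ctrl held in all 16 alternatives, and its TPEN/ONC difference passed in 1 of them, without ONC replicate 3. An E-box also stands in the windows of Per1, Cry1, Tef, Bhlhe41 and Cipc, none of which passed the limma test on all 9 libraries in any comparison. The related E-prime box stands in those of Nr1d1 and Rorb, which passed in ONC/Ctrl and TPEN/Ctrl. It also stands in those of Cry1 and Cry2, which did not pass. The part of E-boxes in the change of Ciart was not tested.

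The RORE activators Rora and Rorb were, like Clock, lowest in ONC. Rora had 18.5, 18.8 and 18.3 RPKM in Ctrl, 16.3, 15.8 and 15.5 RPKM in ONC and 18.6, 18.4 and 19.2 RPKM in TPEN, so ONC stood below both other groups. Its log2 fold change was -0.22 in ONC/Ctrl (limma adjusted p = 0.00226) and 0.24 in TPEN/ONC (0.00479). Rorb, which is also needed for rod photoreceptor development, was at 25.5 ± 1.17 RPKM in Ctrl, 17.6 ± 0.587 in ONC and 21.2 ± 0.192 in TPEN (SD, n = 3), without overlap. Its log2 fold change was -0.53 in ONC/Ctrl (limma adjusted p = 2.1e-05), 0.27 in TPEN/ONC (0.00578) and -0.26 in TPEN/Ctrl (0.00287). Timeless, whose product in mammals acts mainly at replication forks, had 0.730, 0.651 and 0.668 RPKM in Ctrl, 1.15, 1.60 and 1.32 in ONC and 1.10, 0.979 and 1.12 in TPEN. Every injured library exceeded every Ctrl library, and the log2 differences were 0.89 for ONC (limma adjusted p = 0.00172) and 0.58 for TPEN (0.0239) relative to Ctrl. The call of Timeless in TPEN/Ctrl held in 10 of the 16 alternatives.

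**Figure D4:**
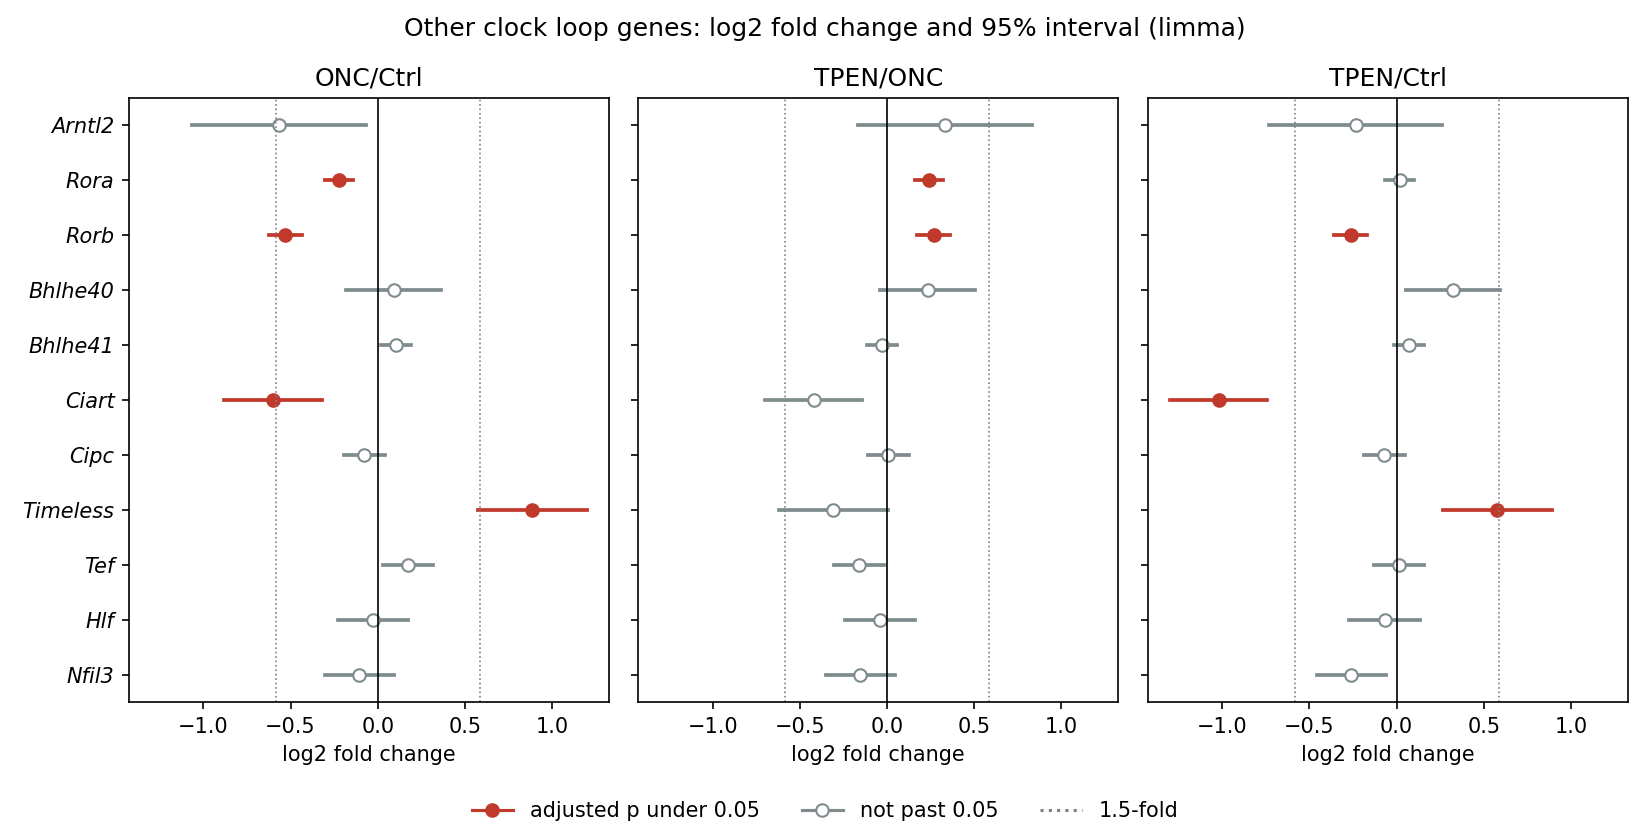
Log2 fold change of the 11 other clock loop genes with its 95% limma interval, filled red where the adjusted p was under 0.05 and open grey where it was not, with dotted lines at a fold change of 1.5. Ciart lies lowest in TPEN/Ctrl at -1.02, Timeless highest in ONC/Ctrl at 0.89, and Rora and Rorb are below 0 in ONC/Ctrl and above 0 in TPEN/ONC.

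Genes that act on the clock proteins, or that follow time of day, temperature, feeding or stress hormones, were listed as well. Of 10 tested clock kinases and ubiquitin ligases, 1 was called higher and 1 lower in ONC/Ctrl, a share of 20% beside 18.7% of all genes tested, and likewise in TPEN/ONC, beside 7.39%. These shares of all genes also stand beside the short lists that follow. Usp2, a deubiquitinase with a rhythm in many tissues, had a log2 fold change of 0.18 in ONC/Ctrl (limma adjusted p = 0.0214) and -0.34 in TPEN/ONC (0.00195), and Btrc, a ligase for PER proteins, had -0.17 (0.0137) and 0.19 (0.0204). Rnf26 and RP24-329C11.8 each share 200 exon bases with Usp2 on the opposite strand. Of 5 temperature- and feeding-linked rhythmic outputs, 2 passed in both comparisons, as increases in ONC/Ctrl and decreases in TPEN/ONC. These were Rbm3, a cold-induced RNA-binding protein (0.36 and -0.19), and Hspa8, a constitutive heat shock protein (0.27 and -0.23), whereas Cirbp, the other cold-induced RNA-binding protein, had 0.057 and 0.023 (limma adjusted p = 0.261 and 0.733).

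Of 6 genes induced by glucocorticoids, hormones that peak daily and can reset clocks, 1 was called higher and 1 lower in ONC/Ctrl and in TPEN/ONC, beside 18.7% and 7.39% of all genes. Fkbp5 had a log2 fold change of 0.39 in ONC/Ctrl (limma adjusted p = 0.00635) and Sult1a1 -0.39 (0.0144), and in TPEN/ONC Sult1a1 had 0.46 (0.0152) and Tsc22d3 -0.40 (0.0205). Of 8 immediate early genes, which light and handling induce, 2 were called higher in ONC/Ctrl, Junb (1.37) and Btg2 (0.37), and 2 lower in TPEN/ONC, Fos (-0.25) and Fosb (-0.66). Fos had -0.038 in ONC/Ctrl (limma adjusted p = 0.634), where Per1, which many of the same signals induce, did not pass the test. Junb, Sult1a1 and Rbm3 share 173, 61 and 94 exon bases with a gene on the opposite strand, so their reads are uncertain to that extent. A list of 8 rhythmic retinal genes held 3 that could be tested, as Asmt, Opn4, Th, Mtnr1a and Mtnr1b were not among the deposited genes. Of these 3, Adcy1 was called higher in ONC/Ctrl (0.22, limma adjusted p = 9.4e-04). Drd4 had 0.12 in ONC/Ctrl (limma adjusted p = 0.348) and -0.051 in TPEN/ONC (0.777). None of the 3 was called in TPEN/ONC, where 1 had an unadjusted p under 0.05 and voom called 1. In TPEN/Ctrl, 1 kinase or ligase gene, 1 temperature- or feeding-linked gene, 5 immediate early genes and 1 rhythmic retinal gene were called, and 0 glucocorticoid-induced genes by limma, by voom or at an unadjusted p under 0.05, beside 13.4% of all genes called by limma.

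The genes whose pattern over the 9 libraries was most like that of Dbp were not clock genes. By Pearson correlation of log2(RPKM + 0.1) among 12141 genes, they included Ssb (0.96), Ywhab (0.94), Hspa9 (0.93) and Nbn (0.93). Among clock genes, Tef came nearest to Dbp at rank 1033 (0.62), and Clock (-0.79) and Arntl (-0.32) had negative correlations with it. For Arntl the nearest genes were Camsap3 (0.97), C130046K22Rik (0.94), Wrap53 (0.94), Gm44053 (0.94) and Slc1a2 (0.93), and the nearest clock gene was Nr1d1 at rank 417 (0.72). These correlations are a description of 9 libraries in 3 groups and hold the group differences, and all genes share the depth of each library.

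Markers of other cells differed between the groups in the same libraries. The summed level of 8 rod markers was 19061 to 19877 RPKM in Ctrl, 16764 to 16982 in ONC and 17980 to 18086 in TPEN, the same order of group means as for Rorb. The means of Clock and Rora were also lowest in ONC, but their Ctrl and TPEN libraries overlapped. Of the 8 rod markers, 6 were called lower and 1 higher in ONC/Ctrl, beside 6.97% and 11.7% of all genes tested. In TPEN/ONC, 2 rod markers were called higher and 1 lower, beside 3.24% and 4.14% of all genes. The summed level of 11 microglia and macrophage markers, none of which was at 0 in every library, was 4.09 to 4.999 RPKM in Ctrl, 42.5 to 43.4 in ONC and 21.9 to 23.8 in TPEN. All 10 of these markers that passed the filter were called higher in ONC/Ctrl, beside 11.7% of all genes tested. The 7 cone markers summed to 131 to 137 RPKM in Ctrl, 113 to 121 in ONC and 202 to 205 in TPEN. The 8 RGC markers summed to 329 to 339 RPKM in Ctrl, 345 to 365 in ONC and 265 to 278 in TPEN, a sum made up mostly of Nefl, which had a mean of 258 RPKM in Ctrl, 264.5 in ONC and 198 in TPEN. The sum hides members with another direction. The means of Rbpms, Pou4f1 and Isl1 were lower in ONC than in Ctrl, with differences of -35.0%, -67.9% and -21.4%. Those of Slc17a6, Thy1, Sncg, Nefl and Nefm were higher, that of Slc17a6 by 62.7%. The libraries of Rbpms, Pou4f1, Isl1 and Slc17a6 did not overlap between ONC and Ctrl, as for 36.5% of all genes tested. Rbpms, Pou4f1 and Slc17a6 fell below the filter, and Isl1 did not pass the test (limma adjusted p = 0.0705). In TPEN/ONC, where the sum was lower, Thy1 was higher (log2 fold change 0.40, limma adjusted p = 0.00587). The part of these shifts in the differences of Clock, Nr1d1 and the other clock loop genes was not tested.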

How the data were processed

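The authors trimmed reads (Trimmomatic 0.36, per the labels' processing notes), mapped them with STAR to GRCm38/mm10 and deposited RPKM values per gene and library. Libraries were made with a stranded mRNA kit, per the study's methods. The counting program, the annotation and the use of strand in counting are not given in the sources used here. The deposited table also holds log2 fold changes, p-values and FDR values of the authors' own edgeR comparisons, which were not used. RPKM multiplied by exon length gave whole reads for 100% of values (tolerance 1e-06), from which library totals came. The 13566 of 15228 genes that averaged 0.5 RPKM or more were tested as log2(RPKM + 0.1) by limma 3.58.1 (R 4.3.3) with a mean-variance trend, 1 coefficient per group over all 9 libraries and Benjamini-Hochberg adjustment over all tested genes, called at an adjusted p under 0.05. The code was tested on simulated data. Alternatives were quantile normalization, no filter or a mean of 1 RPKM, a pseudocount of 1 RPKM, only the 6 libraries compared, the replicate number as a block, limma's voom on the recovered reads with TMM scaling, and leaving out each library. All 10 clock genes were named. From the other lists (other clock loop genes, kinases and ligases, temperature and feeding outputs, glucocorticoid-induced, immediate early and rhythmic retinal genes), genes called in ONC/Ctrl or TPEN/ONC were named, with up to 3 others of high level. Nearest genes were the 5 with the highest correlation, of which 1 for Dbp is not reported here. Genes that share exon bases with any of the 10 clock genes were named beside it. Of the other clock loop genes, Bhlhe41 shares 1280 exon bases (19.0%) with Gm43909 on the opposite strand. Rora shares 82 (0.627%) with Gm15511 and Bhlhe40 118 (2.51%) with 0610040F04Rik, also on opposite strands. Members and lists were chosen with earlier results of these data known. Counting errors assume independent reads.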

Additional observations from a re-analysis of the deposited data

How the results depend on the processing

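For single clock genes under alternatives that kept all libraries of a comparison, 199 values kept their direction and side of the threshold, 5 changed sign, 4 newly passed and 2 no longer did. With a library left out, 245 kept both, 11 changed sign, 2 newly passed and 12 no longer did. Many of these directions could not change. The 2 changes of filter, the fit of only the 6 libraries compared and the replicate block leave the fold change as it was. So does leaving out a library of the group outside a comparison. The number of clock genes called in ONC/Ctrl was 4 with voom on the recovered reads (Arntl and Nr1d2 in addition), against 2, and 1 to 3 with a library left out. In TPEN/ONC, Clock was lost, leaving 0 of 10, when only the 6 libraries compared were fitted (adjusted p = 0.0763), and 0 to 1 were called with a library left out. In TPEN/Ctrl it was 2 after quantile normalization, with Per2, and 1 to 1 with a library left out. For the other clock loop genes, the counts with a library left out were 4 to 4, 2 to 3 and 2 to 4 in ONC/Ctrl, TPEN/ONC and TPEN/Ctrl. With voom they were 6, 2 and 3, with Arntl2 and Tef in addition in ONC/Ctrl. Small values changed sign: Per3 in ONC/Ctrl to -0.011 after quantile normalization, Per1 in TPEN/ONC to 0.0098 after quantile normalization and 0.0083 with voom, and Clock in TPEN/Ctrl to -0.0015 and -0.0025. With a library left out, the log2 fold change ran from -0.048 to 0.033 for Per1, -0.083 to 2.5e-04 for Cry1 and -0.0088 to 0.051 for Nr1d1 in TPEN/ONC. In TPEN/Ctrl it ran from -0.013 to 0.023 for Clock, -0.021 to 0.0061 for Per3, -0.021 to 0.077 for Cry2 and -0.055 to 0.044 for Dbp. The 3 log2 differences between paired genes were tried in ONC/Ctrl and TPEN/ONC only. They moved by less than the spread between replicates after quantile normalization and with a pseudocount of 1 RPKM. With a library left out, groups of 3 keep the shift below that spread in advance, so only ranges are given. For Arntl minus Dbp, Arntl minus Nr1d1 and Cry1 minus Per2 these were -0.36 to -0.28, 0.089 to 0.19 and -0.064 to 0.090 in ONC/Ctrl. In TPEN/ONC they were 0.17 to 0.27, -0.021 to 0.064 and 0.065 to 0.15. Causes were not tested.

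The replicate numbers did not pair the libraries: deviations from the group mean of same-numbered libraries correlated between -0.062 and 0.027, and 1 of 9 libraries correlated best with its own number. With the replicate block, the calls were 2, 0 and 1 of the 10 clock genes in ONC/Ctrl, TPEN/ONC and TPEN/Ctrl, with Clock lost in TPEN/ONC (adjusted p = 0.0779), and 4, 2 and 2 of the other clock loop genes, with Timeless lost in TPEN/Ctrl.

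The spread within groups of Per2, Per3 and Dbp did not exceed counting error. Whether depth limited the precision of these genes was not tested. Differences smaller than their intervals were not detectable at this depth and number of libraries.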
